A study of Mus musculus with 35 samples.

Results

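Interferon-stimulated genes are the genes that cells switch on when interferons bind their receptors. A list of 39 such genes was followed here, named gene by gene, out of the 36106 genes in the deposited table. All 39 were found by symbol, and all 39 passed the filter on low counts in every comparison. They were kept in 2 lists: 31 type I-type genes, which answer mainly to interferon alpha and beta, and 8 interferon-gamma-type genes (Gbp2, Gbp3, Gbp5, Gbp7, Irgm1, Igtp, Irf1 and Cd274). The members were taken from a list of gene names, chosen with earlier results of these data known, and no threshold on a measured value was used.

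Bulk RNA sequencing covered 35 pieces of skin from 19 mice, all female, 10 weeks old at the start and of the inbred strain C57BL/6J. Radiated mice were given a dose of 25 Gy on the left flank (3.6 Gy/min, 420 s), and that flank was shaved afterwards. Radiated and control skin were taken after 1, 2, 3 or 4 weeks, with 4 samples of each kind per week, and 3 sham mice were not irradiated. Radiated and control samples of a week carry the same numbers and were taken to come from the same mice, so control skin belonged to mice that had been irradiated. The body site of the control skin and whether sham skin was shaved are not given in the sources used here. No week is given for sham skin in the sample labels. Each week was sampled in different mice, and their age at sampling rose with the week. Library totals ran from 17362853 to 28487884 counts.

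Type I interferons act through the receptor chains IFNAR1 and IFNAR2 and the kinases JAK1 and TYK2. Transcription factors that they switch on, IRF9 among them, then bind the interferon-stimulated response element in the promoters of their targets. Interferon gamma acts through IFNGR1 and IFNGR2, its signal reaches promoters that hold the gamma-activated site, and it induces IRF1, which also binds response elements of the first kind. Many targets answer to both, so the 2 lists overlap in their control. In skin these genes can be active in keratinocytes, fibroblasts, endothelium and leukocytes alike. Skin was sequenced whole, so a change in the number of cells of a type and a change in RNA per cell cannot be told apart.

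Of the 39 members, 31 had an entry in the RefSeq promoter table (build GRCm38.p6), 23 type I-type and 8 interferon-gamma-type. Windows of 300 bases, 250 before the start site and 50 after it, were searched on both strands for the core of the response element, 2 copies of GAAA with 2 bases of any kind between them, and for the gamma-activated site, TTCNNNGAA, which reads the same on both strands. The response element core lay in 15 of the 26 windows of type I-type members (57.7%) and in 6 of the 10 windows of interferon-gamma-type members, against 3.44% of all 32851 windows in the table, some genes having more than 1 window. The gamma-activated site lay in 5 of 26 (19.2%) and in 4 of 10 windows, against 8.3% of all windows. These are matches of letters, not measured binding. The 150 bases before the start site are shown 5′ to 3′ on the gene's strand for 6 members on which the results below turn, with every match to either motif in capitals. In order they are chr4:156200819-156200968 (minus strand), chr19:34640739-34640888 (plus), chr5:120777660-120777809 (minus), chr3:142620513-142620662 (plus), chr11:53769864-53770013 (plus) and chr19:29367288-29367437 (plus).
Isg15: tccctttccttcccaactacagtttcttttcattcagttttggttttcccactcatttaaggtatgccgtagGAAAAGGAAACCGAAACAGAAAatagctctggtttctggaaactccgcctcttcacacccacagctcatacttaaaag
Ifit1: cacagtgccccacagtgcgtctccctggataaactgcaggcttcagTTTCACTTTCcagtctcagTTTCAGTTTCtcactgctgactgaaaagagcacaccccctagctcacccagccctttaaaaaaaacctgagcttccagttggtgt
Oas3: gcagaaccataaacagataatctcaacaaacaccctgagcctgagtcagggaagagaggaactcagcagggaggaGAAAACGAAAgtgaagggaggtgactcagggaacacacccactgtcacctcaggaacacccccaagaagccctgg
Gbp2: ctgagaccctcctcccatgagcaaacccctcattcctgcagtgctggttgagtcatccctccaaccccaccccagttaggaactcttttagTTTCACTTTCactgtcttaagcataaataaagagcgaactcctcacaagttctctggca
Irf1: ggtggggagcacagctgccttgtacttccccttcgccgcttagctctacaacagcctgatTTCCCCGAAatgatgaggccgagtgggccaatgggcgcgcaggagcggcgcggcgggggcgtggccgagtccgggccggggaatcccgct
Cd274: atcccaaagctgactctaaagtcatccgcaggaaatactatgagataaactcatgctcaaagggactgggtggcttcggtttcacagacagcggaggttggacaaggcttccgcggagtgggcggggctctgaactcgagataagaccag
The capitals in Isg15, Ifit1, Oas3 and Gbp2 are response element cores, on one strand or the other. The capitals in Irf1 are a gamma-activated site. The stretch of Cd274 held neither motif in these exact letters.

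Across the 9 groups, radiated skin of week 3 had the highest mean level for 33 of the 39 members and control skin of week 2 the lowest for 28. The shares of all genes with such ranks were not computed. Levels are in CPM, a gene's count relative to its TMM-scaled library size. Single libraries stood apart within groups. Replicate 2 of control skin in week 3 was the highest of its 4 libraries for 38 of 39 members, was above the other 15 control libraries for 37, and held the highest level of all 35 libraries for 13. Its level was a median of 2.91 times the mean of the other 3 week 3 control libraries, from 1.11 times for Cd274 to 7.72 times for Ifit1. Replicate 1 of the same group was the lowest of its 4 for 34 members. Replicate 1 of radiated skin in week 2 was the highest of its group for 35 members, and sham replicate 1 was the highest of the 3 sham libraries for 35. In radiated skin of week 3, replicate 3 held the highest level of all 35 libraries for 14 members and replicate 2 for 7. Replicate 4 was the lowest of that group for 26. In radiated skin of week 4, replicate 1 was the highest of its group for 34 members and replicate 2 the lowest for 24.

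**Figure D1:**
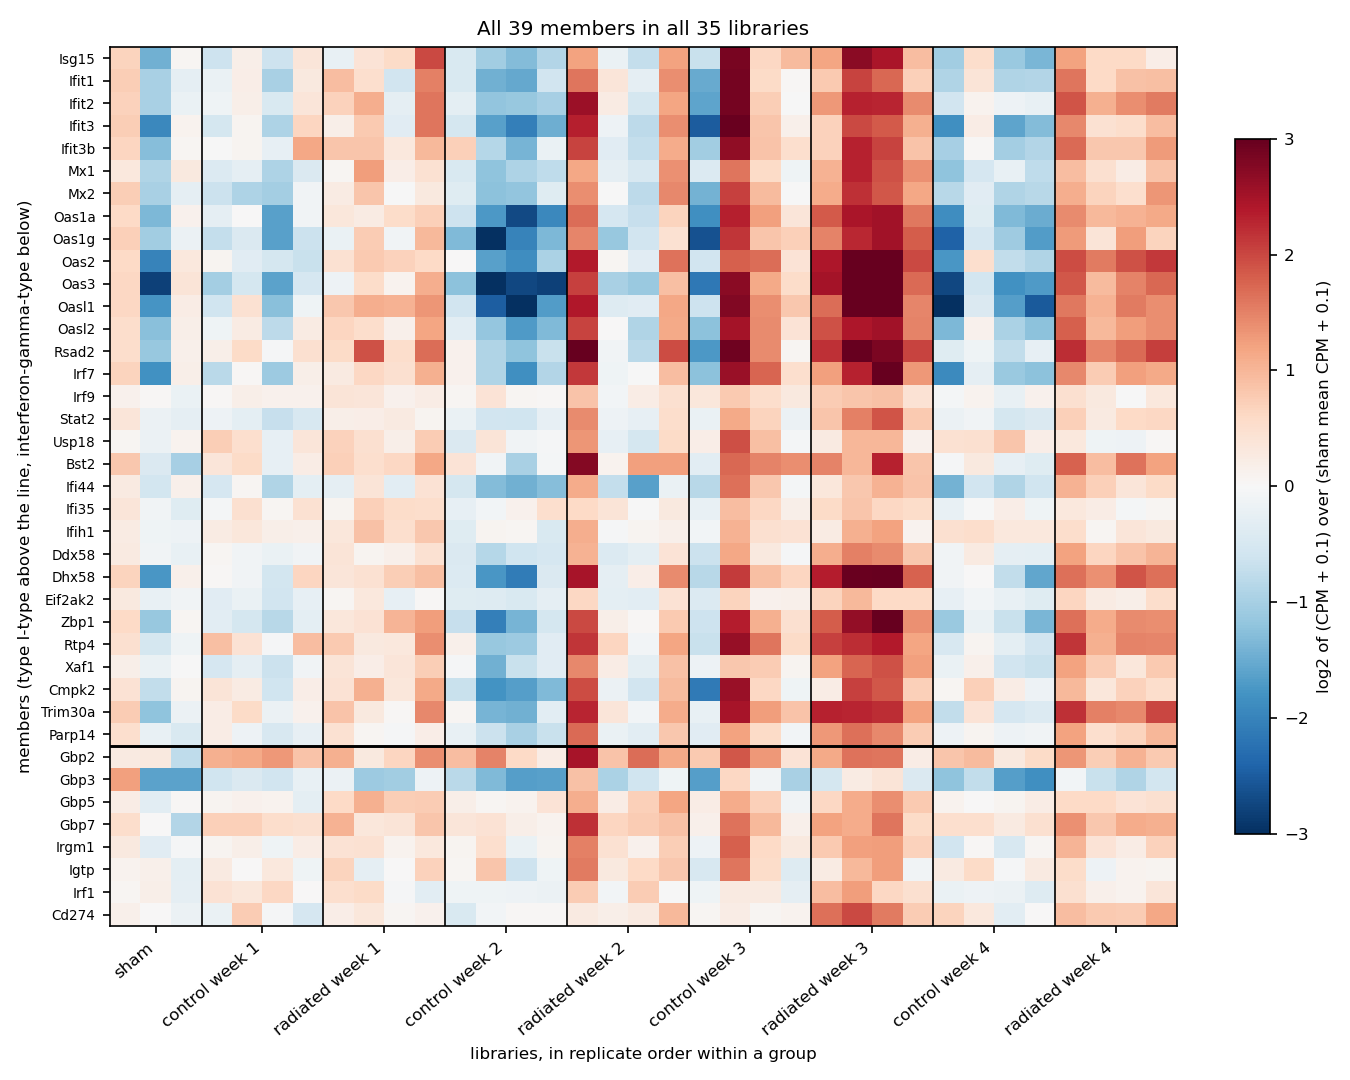
Level of each of the 39 members (rows) in each of the 35 libraries (columns), as the log2 ratio of CPM plus 0.1 to the mean sham CPM plus 0.1, with the colour scale ending at 3 in both directions. Replicate 2 of control skin in week 3 is the highest of its group in 38 of the 39 rows.

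In week 4, radiated skin held more RNA than control skin for most of the members. Of the 39, 32 were higher and 1 was lower at an adjusted p under 0.05 (edgeR quasi-likelihood test with Benjamini-Hochberg adjustment over all 17850 genes tested), when 24.2% of all genes tested were higher and 24.2% lower. Among type I-type members 26 of 31 rose, with a median log2 fold change of 1.70 over the list, and among interferon-gamma-type members 6 of 8 rose, with a median of 0.59. The median of all genes was 0.02. For 30 members the 4 radiated libraries lay above all 4 control libraries, against 22.9% of genes. Leaving out any single library gave between 30 and 33 calls. With all 35 libraries in 1 fit 26 calls remained, and Isg15, Ifit1, Ifit3, Gbp3, Gbp5, Gbp7 and Usp18 were lost.

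The oligoadenylate synthetases make the messenger that activates RNase L, and Oas3, Oas2 and their relative Oasl1 had the largest fold changes among the 39 members. Oas3 stood at 83.2, 44.2, 65.0 and 76.5 CPM in radiated skin and at 3.39, 15.7, 6.49 and 6.96 CPM in control skin of week 4. The groups lay well apart, by a log2 difference of 3.05 ± 0.41 (SE, adjusted p = 0.000232). Oasl1, which restrains the translation of Irf7, had a log2 fold change of 3.06 (adjusted p = 0.00062). This value ran from 2.81 to 3.86 with single libraries left out. Oas2, with 19.6, 15.0, 19.1 and 22.0 CPM against 1.43, 7.21, 2.95 and 2.65 CPM, rose by 2.41 ± 0.40 (SE, adjusted p = 0.000829). Oas1a (2.34), Oas1g (2.30) and Oasl2 (2.12) rose as well on the log2 scale. Oas1a and Oas1g share 31-base stretches with each other over much of their transcripts (68.8% and 55.1% of their words are shared with some other gene), so their separate levels are less certain.

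Rsad2, which encodes viperin, rose by 2.27 on the log2 scale (adjusted p = 1.86e-05), and Ifit2, Ifit3 and Ifit3b, of a family that binds foreign RNA, rose by 1.71, 1.77 and 1.89. Ifit3 and Ifit3b share 61.8% and 55.3% of their words with other genes, mainly with each other. Ifit1 was at 51.4, 25.8, 31.1 and 31.6 CPM in radiated skin and at 9.05, 22.4, 9.10 and 9.22 CPM in control skin, 2.83 times as high on average (adjusted p = 0.0047). The groups did not overlap, and control replicate 2 was the closest to the radiated libraries. Isg15, a ubiquitin-like protein that is joined to other proteins, was at 10.0, 6.55, 6.53 and 4.95 CPM against 2.01, 6.23, 1.92 and 1.58 CPM (log2 fold change 1.27 ± 0.43 SE, adjusted p = 0.0351). It was higher in 4 of 4 pairs, while control replicate 2 overlapped the radiated libraries. Its call was lost without control replicate 1, 3 or 4 and without radiated replicate 1, 2 or 3, and the adjusted p over all alternatives ran from 0.000631 to 0.114. The GTPases Mx1 and Mx2 rose by 1.29 and 1.70, Bst2, the tetherin that holds virus particles at the cell surface, by 1.54, and Eif2ak2, the kinase PKR, by 0.65.

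Irf7, which amplifies type I interferon transcription, rose by 2.18 and Zbp1, a sensor of Z-form nucleic acid, by 2.21. Among the RNA sensors, Dhx58 (LGP2) rose by 2.20 and Ddx58 (RIG-I) by 1.03, while Ifih1 (MDA5) did not pass the test (log2 fold change -0.08, adjusted p = 0.56). Stat2 rose by 0.87, and its partner Irf9 had a log2 fold change of 0.29 that did not pass (adjusted p = 0.088). Cmpk2 and Ifi35 also did not pass, with 0.41 and 0.19. Usp18, which removes Isg15 from proteins and restrains the type I receptor, moved against the list. It was at 11.5, 8.46, 8.25 and 9.46 CPM in radiated skin and at 12.6, 12.9, 16.5 and 10.6 CPM in control skin (log2 fold change -0.47 ± 0.17 SE, adjusted p = 0.0399). The ranges overlapped and it was lower in all 4 pairs, but the call was lost with the pairing of the mice in the model (adjusted p = 0.0811) and with scaling to library totals (0.0963). It was also lost without control replicate 1, 2 or 3 and without radiated replicate 2, 3 or 4. An antisense gene, Gm44148, overlaps Usp18, and strand was not stated for the counting.

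Among the interferon-gamma-type members in week 4, the immunity-related GTPase Irgm1 rose by 0.84 ± 0.22 (SE), the guanylate-binding proteins Gbp3, Gbp7 and Gbp5 by 0.80, 0.66 and 0.42, and Irf1, a transcription factor, by 0.52. In 1 fit of all libraries the adjusted p of Gbp3, Gbp7 and Gbp5 was 0.224, 0.104 and 0.126. Gbp3 also lost its call without control replicate 3 or 4 or radiated replicate 1 or 4. Cd274, which encodes the immune checkpoint ligand PD-L1, was at 52.4, 48.0, 47.2 and 61.5 CPM in radiated and at 44.0, 34.6, 22.0 and 27.9 CPM in control skin. It rose by 0.71 ± 0.20 (SE, adjusted p = 0.0132), with no overlap. Gbp2 was at 35.1, 23.3, 29.0 and 24.3 CPM against 25.2, 27.1, 17.3 and 20.8 CPM, and its log2 fold change of 0.31 did not pass (adjusted p = 0.169). Igtp did not pass either, at -0.10.

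**Figure D2:**
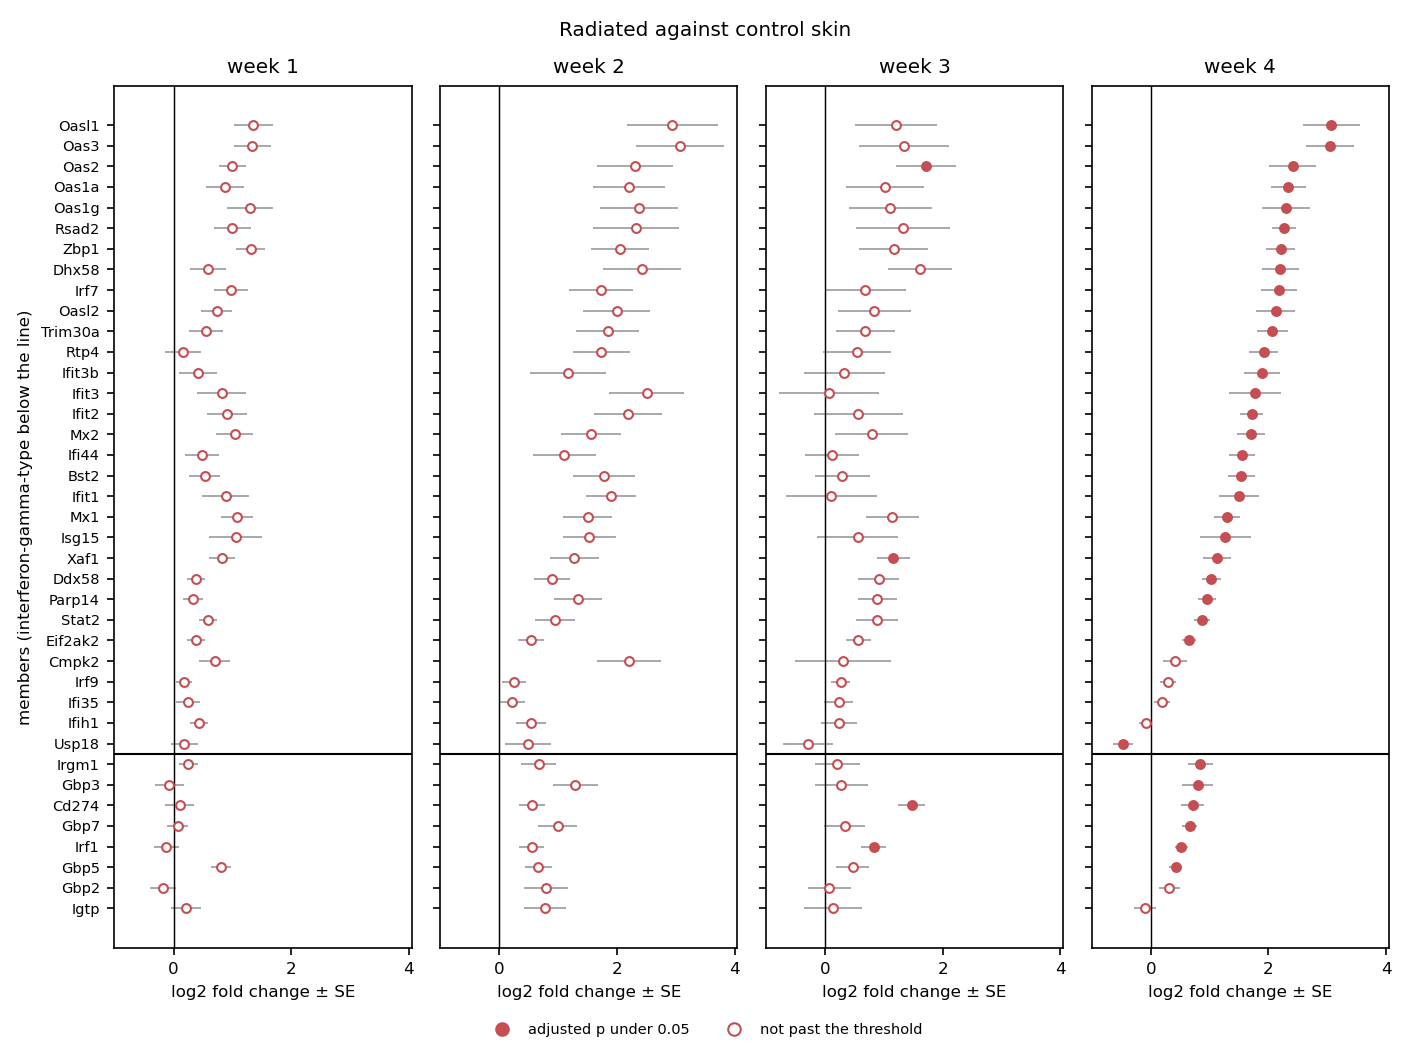
Log2 fold change of radiated against control skin for each member, by week, with bars of 1 standard error, from edgeR fits of 4 against 4 libraries. Filled points passed an adjusted p of 0.05: none in weeks 1 and 2, 4 in week 3 and 33 in week 4.

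In week 3 only 4 members passed, all higher in radiated skin: Oas2 and Xaf1 of the type I-type list and Cd274 and Irf1 of the other. That is 4 of 39 where 13.6% of all 17653 genes tested were higher, and the ranges of 4 members did not overlap against 14.4% of genes. Cd274 was at 86.7, 109.8, 82.0 and 46.9 CPM in radiated skin and at 28.6, 32.4, 29.0 and 29.9 CPM in control skin. Every radiated library lay above every control library (log2 fold change 1.47 ± 0.23 SE, adjusted p = 0.00284), and the call held with each library left out. Irf1 was at 55.5, 69.1, 44.5 and 40.6 CPM against 26.4, 35.0, 35.0 and 24.0 CPM (0.83 ± 0.21 SE, adjusted p = 0.0184). A gene on the other strand overlaps exons of each. AC119228.1 shares 12.1% of the words of Cd274, and Gm17334 shares 1.85% of those of Irf1. Xaf1, which binds an inhibitor of apoptosis, had a log2 fold change of 1.16 (adjusted p = 0.0158) and Oas2 one of 1.71 (adjusted p = 0.0339).

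The other 35 members did not pass in week 3, and 6 of them, all type I-type, had an unadjusted p under 0.05. Ifit1 was at 29.5, 69.4, 56.6 and 27.9 CPM in radiated skin and at 5.90, 124, 25.1 and 17.3 CPM in control skin. Control replicate 2 lay above all radiated libraries, and the log2 difference was 0.11 ± 0.77 (SE, adjusted p = 0.933). With single libraries left out it ran from -0.26 to 1.53, the highest being without control replicate 2. Isg15 was at 9.78, 28.5, 23.9 and 8.20 CPM against 2.65, 31.1, 6.64 and 8.39 CPM. Its log2 fold change was 0.55 (adjusted p = 0.581) and ran from 0.21 to 1.61 with single libraries left out. Gbp2 was at 31.1, 43.3, 42.8 and 16.3 CPM against 24.3, 51.6, 34.6 and 18.7 CPM, with a log2 fold change of 0.07 (adjusted p = 0.903). Dhx58 was just outside the threshold (1.61, adjusted p = 0.0535).

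The week 3 count rested on single libraries. Without control replicate 2, 15 members were higher (13 type I-type and 2 interferon-gamma-type), and the median log2 fold change of the type I-type list was 1.49 in place of 0.68. Without control replicate 1 or control replicate 4, 2 members were left, as Irf1 and Oas2 were lost. Oas2 was also lost without radiated replicate 2 or radiated replicate 3. With both libraries of replicate 1, 2, 3 or 4 left out, 2, 6, 2 and 3 members were called. Oas2 was lost in each of these, Irf1 without replicates 1 or 2, and Xaf1 without replicate 3. With the pairing of the mice in the model 12 members were higher (21.1% of all genes were called, in either direction), with scaling to library totals 11 (30.2%), and DESeq2 gave 8 (34.2%), beside 27.2% of genes for the 4 calls above. Total scaling moved the median over all genes from 0.08 to 0.32 (log2).

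Markers of several cell types moved with these results. Of all genes tested, 13.6% were higher in week 3, and 24.2% were higher and 24.2% lower in week 4. In week 3, 27.2% were called in either direction. The summed level of the macrophage and monocyte list (Adgre1, Cd68, Csf1r, Itgam, Ly6c2, Mrc1, Cd14 and Fcgr1) was 141 to 217 CPM in control and 817 to 1192 CPM in radiated skin of week 4, and 8 of 8 of its genes were higher. In week 3 it was 254 to 628 CPM in control and 690 to 2085 CPM in radiated skin, with 7 of 8 genes higher. Control replicate 2 of week 3 had the highest sum of its group, 628 CPM beside 554.6 CPM in replicate 3, but its neutrophil sum of 9.34 CPM was the lowest. It was also highest of its group for the T cell sum, 65.7 CPM against 33.0 to 51.5 CPM, and for the pan-leukocyte gene Ptprc, 115 CPM against 62.6 to 100.9 CPM. Its B cell sum, 1.146 CPM, was the highest as well. Its NK cell sum, 1.924 CPM against 2.34 to 3.578 CPM, was the lowest. So was its dendritic and Langerhans cell sum, 30.75 CPM against 32.99 to 43.4 CPM. The neutrophil sum of radiated skin of that week was 101 to 822 CPM. The neutrophil list had 6 of 6 tested genes higher in weeks 3 and 4. Of the 7 T cell genes tested, 1 was higher in week 3, and in week 4 1 was higher and 1 lower. These counts stood near the shares of all genes. Among 3 tested genes of the plasmacytoid dendritic cell list, a type known for making interferon alpha, none passed in week 3 (edgeR) and 1 was higher in week 4. Markers of other skin cells moved as well. In week 4, 4 of 4 fibroblast genes were higher, with sums of 1637 to 3555 CPM in control and 22690 to 36110 CPM in radiated skin, as were 3 of 3 endothelial, 4 of 4 mast cell and 4 of 4 hair follicle genes. Of 4 skeletal muscle genes 3 were lower, and of 4 keratinocyte genes 1 was higher and 2 were lower. In week 3, 4 of 4 mast cell genes and 1 of 4 fibroblast genes were higher and 3 of 4 muscle genes lower. The part of these cells in the members' differences was not tested.

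In weeks 1 and 2 no member passed the test, though most lay on the higher side in radiated skin. In week 1, 0 of 39 passed where 0.0% of 17578 genes did, while 21 members had an unadjusted p under 0.05 against 14.1% of genes, and DESeq2 called 8 (2.52% of genes). Zbp1 was at 9.14, 9.77, 14.7 and 17.2 CPM in radiated and at 5.77, 4.94, 4.01 and 5.89 CPM in control skin of week 1, with no overlap (log2 fold change 1.31 ± 0.25 SE, adjusted p = 0.171). Oas3 and Oas2 had log2 fold changes of 1.34 and 1.00 (adjusted p = 0.19 for both). The ranges of 14 members did not overlap, against 3.5% of genes, and 13 of the 14 were type I-type. The summed skeletal muscle markers were also apart, at 21840 to 34550 CPM in control and 6634 to 19130 CPM in radiated skin of week 1, though none of the 4 genes passed (edgeR), and their part in the result was not tested. Gbp5 was the interferon-gamma-type exception, at 18.3, 25.1, 20.2 and 20.2 CPM against 12.7, 13.0, 12.8 and 9.80 CPM (0.80 ± 0.17 SE, adjusted p = 0.19). Isg15 and Ifit1 had log2 fold changes of 1.05 and 0.88, and Gbp2 one of -0.18, with adjusted p = 0.335, 0.349 and 0.717 by edgeR. The Isg15 value ran from 0.40 to 1.30 with single libraries left out. Radiated replicate 4 held 17.1 CPM of Isg15, against 3.67 to 6.35 CPM in the other radiated libraries. Without radiated replicate 1, Oas3 and Zbp1 passed.

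In week 2, 0 of 39 passed with edgeR where 0.00577% of 17345 genes did, and 31 members had an unadjusted p under 0.05 against 13.8% of genes. DESeq2 called 20 (4.44% of genes). With the pairing of the mice in the model, 16 members were higher (3.7% of genes were called), 15 of them type I-type and the other Gbp3. All 39 members had a log2 fold change above 0, with a median of 1.73 in the type I-type list and of 0.72 in the other. Without radiated replicate 1 these medians were 1.25 and 0.47. The ranges of 11 members did not overlap, against 3.98% of genes. Oas3 was at 96.2, 11.6, 10.5 and 42.8 CPM in radiated and at 9.68, 2.80, 3.40 and 3.23 CPM in control skin of week 2. Its log2 fold change was 3.07 ± 0.74 (SE), and the adjusted p was 0.145 (0.015 with the pairing). Radiated replicate 1 was far above replicates 2 and 3, and without it the log2 fold change was 2.18, or 3.67 without control replicate 1. Ifit1 was at 52.1, 21.7, 14.1 and 44.7 CPM against 12.4, 6.19, 5.76 and 11.4 CPM (1.89 ± 0.43 SE, adjusted p = 0.139, or 0.00592 with the pairing). Zbp1, at 2.05, and Gbp3, at 1.29, passed with the pairing as well (adjusted p = 0.0165 and 0.0466). Isg15 had a log2 fold change of 1.53 (adjusted p = 0.192), and Gbp2 one of 0.79 (adjusted p = 0.378). Radiated replicate 1, the highest of its group for 35 members, also had the highest macrophage and monocyte sum of the group, 1187 CPM against 293 to 578 CPM in the other 3. That sum was 115 to 278 CPM in control skin of week 2, below every radiated library, and the summed skeletal muscle markers were 24030 to 42670 CPM in control and 8222 to 16880 CPM in radiated skin. None of the 8 macrophage or 4 muscle genes passed the test in week 2 (edgeR). Its neutrophil sum of 22.1 CPM lay below those of replicates 3 and 4, 40.7 and 54.1 CPM. The part of those cells was not tested.

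**Figure D3:**
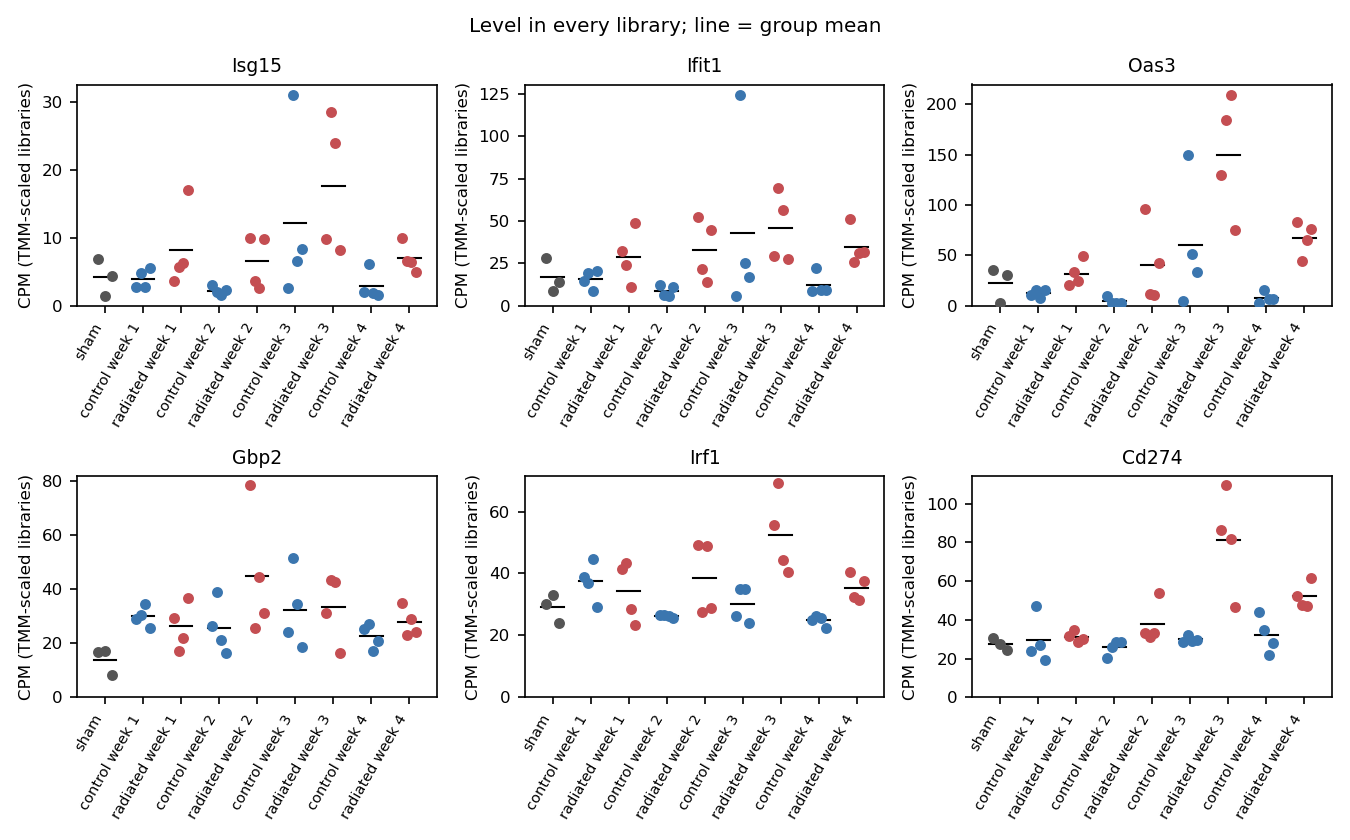
CPM of Isg15, Ifit1, Oas3, Gbp2, Irf1 and Cd274 in every library, with grey for sham (n = 3), blue for control and red for radiated skin (n = 4 each), and a line at the group mean. The levels of Cd274 rise above all control libraries of the week in week 3, while Ifit1 is highest in 1 control library of that week, at 124 CPM.

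The difference between radiated and control skin was then compared between weeks, which shows whether it was larger at one time than at another. Only Cd274 passed (adjusted p = 0.0346, edgeR F test over the 3 interaction terms, 1 of 39 members against 15.6% of 19338 genes). From the first week to the last its log2 fold changes were 0.10, 0.55, 1.47 and 0.71. The call was lost without replicate 1, without replicate 2 and without replicate 3 of the radiated and control groups. Irf1, with -0.12, 0.55, 0.83 and 0.52 over the weeks, did not pass (adjusted p = 0.0896). From one week to the next no member passed with edgeR or DESeq2: 0 of 39 from week 1 to 2 (0.0% of genes, 7 members and 6.7% of genes at an unadjusted p under 0.05), 0 from week 2 to 3 (6.9% of genes, then 5 members and 22.7%) and 0 from week 3 to 4 (0.419% of genes, then 5 members and 13.9%). Without replicate 4, Cd274 passed from week 2 to 3. The members called in week 4 and not in week 3 are therefore not shown to differ between these weeks.

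Sham skin gave a reference from mice with no radiation, and the same 3 sham libraries served every comparison that follows. Since no week is given for sham skin, its time and age may differ from those of each week. In week 3, 26 of 39 members were higher in radiated than in sham skin (10.4% of 18220 genes were higher), 22 type I-type and 4 interferon-gamma-type, and none was lower. The ranges of 32 lay above sham, against 15.6% of genes. The list medians were 1.73 and 1.06 on the log2 scale, against 0.03 for all genes. Rsad2 was at 43.7, 120.7, 67.3 and 39.1 CPM in radiated skin of week 3 and at 13.6, 4.25 and 10.6 CPM in sham skin (log2 fold change 2.89 ± 0.53 SE, adjusted p = 0.0108). Oas2 and Oasl1 rose by 2.88 and 2.83, Cd274 by 1.60, Irgm1 by 1.06 and Gbp5 by 1.05. Isg15 rose by 2.09 (adjusted p = 0.0469), while Ifit1 (1.48, adjusted p = 0.0632) and Gbp2 (1.29, adjusted p = 0.0571) did not pass. The Isg15 call was lost without radiated replicate 2 or 3 and without any one of the sham libraries, with an adjusted p of up to 0.121. The count fell to 15 without radiated replicate 2, to 10 without sham replicate 2 and to 7 without sham replicate 3. Of the marker genes, 8 of 8 for macrophages and monocytes and 5 of 6 tested for neutrophils were higher than in sham skin, with macrophage sums of 690 to 2085 CPM against 124 to 280 CPM. The hair follicle sum was 0.495 to 366.5 CPM against 751.9 to 8427 CPM in sham skin, and 1 of its 4 genes was lower. The part of these cells in the result was not tested.

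In week 4, 17 members were higher in radiated than in sham skin (15.2% of 18346 genes were higher), 13 type I-type and 4 interferon-gamma-type. The ranges of 21 lay above sham, against 18.5% of genes. Oas2 rose by 1.97, Rsad2 by 1.95 and Trim30a, a ubiquitin ligase, by 1.87, with no overlap of the groups. Gbp7, Gbp2 and Cd274 rose by 1.15, 1.03 and 0.96. Gbp2 stood at 16.8, 17.1 and 8.16 CPM in sham skin, below all 4 radiated libraries of week 4 (adjusted p = 0.0278). Ifit1 and Isg15 had log2 fold changes of 1.09 and 0.77 and did not pass (adjusted p = 0.0764 and 0.253). Gbp3 was at 47.7, 6.59 and 6.66 CPM in the sham libraries and at 19.1, 12.8, 10.8 and 13.8 CPM in radiated skin of week 4. Its log2 fold change against sham was -0.48 (adjusted p = 0.631). That direction rested on sham replicate 1, as the other sham libraries lay below all radiated libraries. The count was 7 without radiated replicate 1, 8 without radiated replicate 4, 8 without sham replicate 3 and 28 without sham replicate 1. In 1 fit of all libraries it was 9, and Rsad2 and Gbp2 were among the calls lost. Marker genes of macrophages (8 of 8), neutrophils (6 of 6 tested), fibroblasts (4 of 4) and endothelium (3 of 3) were higher than in sham skin and 4 of 4 of skeletal muscle lower, with macrophage sums of 817 to 1192 CPM, and their part in the result was not tested.

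Against sham skin, radiated skin of weeks 1 and 2 gave no calls with edgeR among the members. In week 1 these were 0 of 39 (1.75% of 18228 genes were called), with 7 at an unadjusted p under 0.05 (16.6% of genes) and 1 call, Gbp5, by DESeq2 (6.78% of genes). Rsad2, Ifih1 and Cmpk2 had log2 fold changes of 1.31, 0.64 and 0.79, and Isg15, Ifit1 and Gbp2 of 0.94, 0.77 and 0.90. In week 2 these were 0 of 39 (5.06% of 18036 genes), with 7 at an unadjusted p under 0.05 (23.6% of genes) and 4 calls by DESeq2 (Bst2, Gbp2, Gbp5 and Gbp7, with 14.1% of genes called). Gbp2 was at 78.5, 25.6, 44.6 and 31.1 CPM in radiated skin of week 2, all above the sham libraries, and just outside the threshold (log2 fold change 1.69, adjusted p = 0.0554). Isg15 and Ifit1 had 0.62 and 0.97 in that week. Of the hair follicle markers, 4 of 4 genes were lower than in sham skin in both weeks. Their sum was 751.9 to 8427 CPM in sham skin. It was 1.726 to 47.64 CPM in radiated skin of week 1 and 1.399 to 8.299 CPM in week 2. The part of hair follicle cells in these values was not tested.

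**Figure D4:**
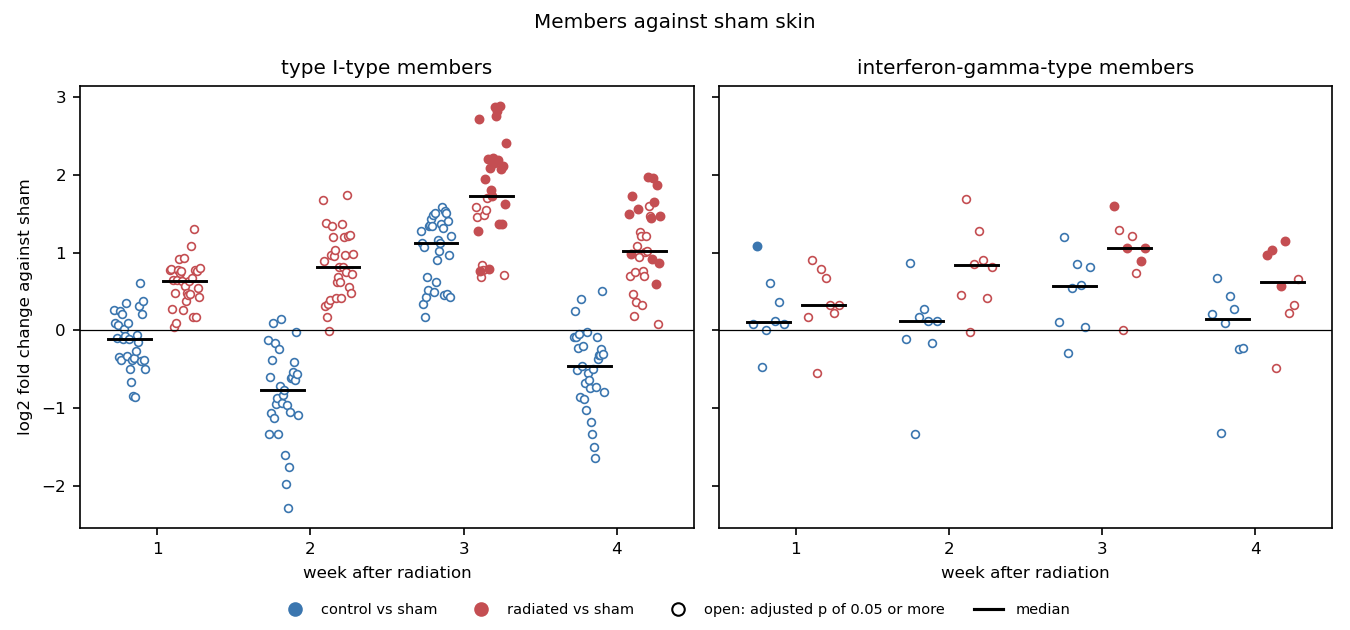
Log2 fold change of each member against sham skin, for control skin (blue) and radiated skin (red) by week, with filled points at an adjusted p under 0.05 and a line at the list median. The type I-type median of control skin lies at -0.77 in week 2 and at 1.12 in week 3, or at 0.31 in week 3 without control replicate 2.

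Control skin was compared with sham skin to see how the reference itself stood. In week 1, 1 member passed: Gbp2, at 29.2, 30.7, 34.5 and 25.6 CPM in control skin, was above all sham libraries (log2 fold change 1.09 ± 0.26 SE, adjusted p = 0.0485 by edgeR, where 3.28% of 17893 genes were higher). The call was lost on leaving out any control library, sham replicate 2 or sham replicate 3, with total scaling and in 1 fit of all libraries. Without sham replicate 1, Gbp2, Gbp3 and Gbp7 passed. In weeks 2, 3 and 4 no member passed with edgeR (2.44%, 11.4% and 3.65% of genes did), while 14, 2 and 6 had an unadjusted p under 0.05 (21.1%, 29.7% and 22.0% of genes), and DESeq2 gave 3, 2 and 0 calls (11.2%, 20.4% and 10.3% of genes).

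The type I-type medians of control against sham skin were -0.77, 1.12 and -0.46 in weeks 2, 3 and 4. They rested on single libraries: without control replicate 2 the week 3 median was 0.31, and without sham replicate 1 those of weeks 2 and 4 were -0.34 and -0.06. None of the 31 members passed in these weeks with edgeR, and no test between the control weeks was run. The summed skeletal muscle markers were 24030 to 42670 CPM in control skin of week 2 and 14210 to 28780 CPM in week 3, against 5740 to 12420 CPM in sham skin, and the macrophage sum was 254 to 628 CPM in week 3 against 124 to 280 CPM. The hair follicle sum was 751.9 to 8427 CPM in sham skin. In control skin of weeks 2, 3 and 4 it was 1.135 to 1278 CPM, 1.125 to 583.8 CPM and 1.857 to 3.069 CPM. The part of these cells was not tested. Cmpk2, a mitochondrial nucleotide kinase, and Ifi44 were lowest by p in week 2, with log2 fold changes of -1.33 and -1.13 (adjusted p = 0.091 and 0.0997). Without control replicate 1 of week 2, Cmpk2, Ifi44, Oas1a and Oas3 passed as lower. In week 3, Ifit1 stood 1.34 ± 0.91 higher in log2 (SE, adjusted p = 0.364) that became -0.09 without control replicate 2. In week 4, Ifih1 and Usp18 were on the higher side (0.40 and 0.51, adjusted p = 0.128 and 0.161), and Ifih1 passed without sham replicate 1. Oas3, at 35.5, 3.21 and 30.2 CPM in sham skin, shows how far apart the sham libraries themselves stood.

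Other genes of the pathway were read from lists of names. Of 11 interferon genes, only Ifnk passed the filter. It encodes interferon kappa, made by keratinocytes, and fell in week 4 by 1.45 on the log2 scale, from 2.35 to 0.85 CPM (adjusted p = 0.00668). Ifna1, Ifna5, Ifnl2 and Ifnl3 had 0 counts in all 35 libraries, Ifnb1 at most 4 counts and Ifng at most 3 in any library. Ifnz, interferon zeta, did not pass the filter but had over 3 counts in 16 libraries, at most 24. A level under 3 counts, 0.105 to 0.173 CPM by library, cannot be read.

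Of 15 receptor and signalling genes, 9 rose and 2 fell in week 4 of radiated against control skin, and 5 rose in week 3 (24.2% of all genes were higher and 24.2% lower in week 4, and 13.6% were higher in week 3). Ifnar2 rose from 10.4 ± 1.81 to 43.3 ± 5.91 CPM (SD, n = 4) in week 4 (log2 fold change 2.07) and by 1.58 in week 3. Ifnar1 rose by 1.07 and 1.05 in these weeks. Irf8, a transcription factor of myeloid cells, rose by 2.57 and 2.10. Ifnlr1, the receptor chain for interferon lambda on epithelial cells, fell by 1.70 in week 4, from 35.1 ± 2.16 to 10.7 ± 3.30 CPM (SD, n = 4). Of the gamma receptor chains, Ifngr2 rose by 0.73 and Ifngr1 was lower by log2 -0.49 (adjusted p = 0.0133, or 0.0509 with the pairing).

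Of 12 genes of nucleic acid sensing, 7 were higher in week 4 (24.2% of all genes) and 4 in week 3 (13.6%). Tmem173, the adaptor STING, rose by 2.36 and 1.64, and the endosomal receptor Tlr9 by 2.80 and 2.45. Tlr8 and Tlr7 rose by 2.94 and 2.01 in week 4. Cgas, which makes the ligand of STING, was at 9.50 against 8.98 CPM in week 4 and did not pass (log2 0.09, adjusted p = 0.666). Of 6 inhibitors, Ptpn2 and Ptpn6 rose and Pias1 and Trim24 fell in week 4, by log2 values of at most 0.60 in size, and Socs1 did not pass (0.02). With 2 of 6 in each direction, the inhibitors stood near the 24.2% of all genes called either way.

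Of 32 other type I targets, 27 were higher and none lower in week 4 (24.2% of all genes in each direction), and 7 were higher in week 3 (13.6% of all genes). Ifitm1, which blocks virus entry, rose from 3.41 to 34.3 CPM in week 4 (log2 3.34) and from 2.23 to 42.2 CPM in week 3 (log2 4.28). Lgals3bp rose by 2.75 and Epsti1 by 2.09 in week 4. Of 30 other interferon-gamma targets, 29 could be tested, and in week 4 11 rose and 8 fell, the latter near the 24.2% of all genes that were lower. The higher genes included Nos2 (2.52), the inducible nitric oxide synthase, the GTPases Tgtp2 (2.42) and Iigp1 (1.33), and Ciita (0.59), the regulator of MHC class II. The 8 lower genes were Nlrc5, Tap1, Tap2, Psmb9, Psme1, Psme2, B2m and H2-K1, and no list of genes of one function was tested among them. Nlrc5, a regulator of MHC class I genes, fell by 0.78, from 81.7 ± 8.22 to 47.2 ± 8.23 CPM (SD, n = 4, adjusted p = 0.000674). Tap1 and Psme1 fell by 0.47 and 0.49. The other 5 lost the call with scaling to library totals, with adjusted p from 0.0522 (B2m) to 0.116 (Tap2), where the median of all genes moved from 0.02 to 0.11. With the pairing, Tap2 (adjusted p = 0.0621) and Psmb9 (0.066) lost it. In week 3, Cxcl10, Nos2 and Ciita were higher (3.87, 3.82 and 1.13) and none of the 29 tested was lower.

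**Figure D5:**
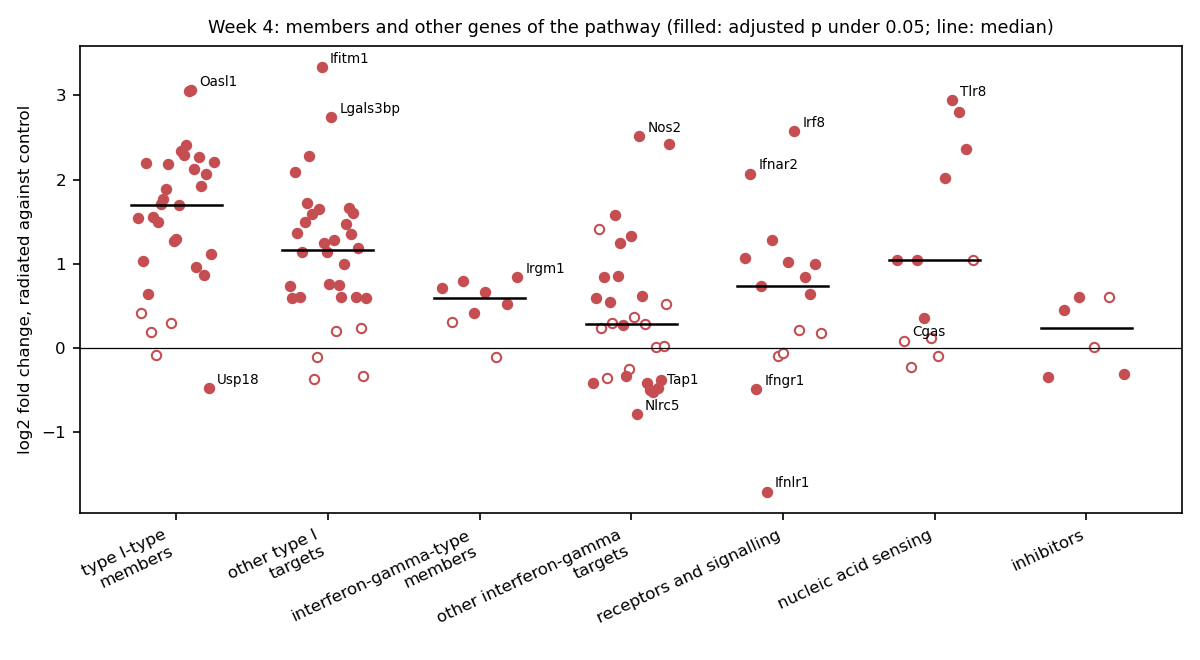
Log2 fold change of radiated against control skin in week 4 for the members and for the other genes of the pathway, 1 point a gene, filled at an adjusted p under 0.05, with a line at each list's median. The other interferon-gamma targets spread on both sides of 0, from -0.78 (Nlrc5) to 2.52 (Nos2), while the type I-type members lie mostly above 0.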

How the data were processed

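Bulk RNA sequencing had been done on 35 mouse skin samples in 9 groups. Per the submitters' processing notes, Trim Galore 0.6.7, kallisto 0.46.2 and the genome mm10 were used, and per the labels' protocols DESeq2 as well. The authors deposited an estimated count for every gene, not scaled between samples, as the authors' pipeline made them; 29.5% to 32.5% of a library's values above 0 were not whole, and all were rounded here. Strand setting and annotation release are not given in the sources used here. Reads that fit several similar genes are split by estimate, so near-identical members are less certain.

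Genes were filtered with filterByExpr and tested with edgeR 4.0.16 in R 4.3.3 (TMM scaling, quasi-likelihood F test, Benjamini-Hochberg adjustment over all genes tested, threshold 0.05), in a fit of the groups compared with no further term. The standard error is the log2 fold change over the square root of F. Change over weeks was tested in a model of the radiated and control libraries. Alternatives were DESeq2 1.42.0, total-count scaling, no filter, the replicate block, a fit of all libraries, and leaving out each library. Leaving out both libraries of a number in weeks 2 and 3 was chosen after seeing the data. Within a week the labels give radiated and control libraries equal numbers, and 35 samples came from 19 mice, so equal numbers were taken as the same mouse. Correlations of the paired deviations were 0.118 to 0.229 in week 2 and -0.0556 to 0.205 in the other weeks. Sham numbers name other mice and pair nothing. No libraries held identical values. Nothing beyond the numbered mice says that samples are independent, so p-values measure the spread between these samples. On simulated data with 4-fold changes, the test of week 4 radiated against control skin recovered 98.5% of 200 genes, and with 2-fold changes 16%. Of its calls there, 4.83% and 3.03% were false, against 13.3% and 15% with DESeq2. The simulation gave every gene the same spread and changed few genes, unlike these data, so its rates need not hold here.

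A result for 1 gene of the pathway is not reported here. In each comparison Isg15, Ifit1 and Gbp2 were named whatever their values, with the 3 members of each list with the largest change past the threshold or, failing that, the smallest p; others are named to show a role, a call that changed or a move against the list. The members and lists were chosen with earlier results of these data known. Shared words are 31-base stretches of a gene's GENCODE M21 transcripts (GRCm38) found in another gene. The floor of 3 counts covers counting error only.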

Additional observations from a re-analysis of the deposited data

Results flagged for a closer look

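Within the groups of 4 libraries, the highest or lowest library was set against the range of its group, for 312 sets of 1 member and 1 group. The gap to the nearest library, as a share of the range, passed Dixon's 95% critical value in 17, where chance alone marks about 1 in 20 sets. In control skin of week 4, replicate 2 was high for 5 type I-type members: Isg15 at 6.23, Ifit1 at 22.4, Ifit3 at 36.1, Ifit3b at 4.86 and Mx2 at 2.48 CPM. In control skin of week 2, replicate 1 was high for Ifit2 (17.5 CPM), Oas3 (9.68 CPM) and Ifi44 (3.89 CPM), and replicate 2 for Irf9 (36.2 CPM). Replicate 2 of control skin in week 3 was high for Ifit1, at 124 CPM. In control skin of week 1, replicate 4 was high for Ifit3b (10.8 CPM) and low for Gbp5 (9.8 CPM). In radiated skin of week 2, replicate 1 was high for Ifih1 (66.0 CPM) and Gbp7 (83.3 CPM) and replicate 4 for Cd274 (54.1 CPM). Trim30a was low in replicate 4 of radiated skin in week 3 (44.9 CPM), and Gbp7 was low in replicate 3 of control skin in week 4 (21.9 CPM).

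The difference of Cd274 between radiated and control skin changed over the weeks, by the edgeR test of the interaction itself (adjusted p = 0.0346), and leaving out replicate 1, 2 or 3 ended the call.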

How the results depend on the processing

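Of 182 results for named members, 81 passed the threshold. Over 1025 alternative values of these 81, 859 kept direction and call, 166 kept direction but not the call, and 0 reversed. The number of members called moved as follows under DESeq2: 8, 20 and 8 for radiated against control skin in weeks 1, 2 and 3, 1 and 4 for radiated against sham skin in weeks 1 and 2, and 3 and 2 for control against sham skin in weeks 2 and 3. With all libraries in 1 fit it was 15 and 10 in weeks 2 and 3 of radiated against control, 1, 4 and 9 in weeks 1, 2 and 4 of radiated against sham, and 0 and 2 in weeks 1 and 3 of control against sham. With the replicate block it was 16 and 12 in weeks 2 and 3 of radiated against control and 0 in week 1 of control against sham, where sham numbers name other mice and the block pairs nothing, and the block moved no other count by more than 1.5 times. Total-count scaling gave 11 in week 3 of radiated against control and 0 in week 1 of control against sham, and no filter gave 1 in week 2 of radiated against sham. Leaving out single libraries gave 0 to 2, 0 to 0, 2 to 15 and 30 to 33 members in weeks 1 to 4 of radiated against control, 0 to 0, 0 to 0, 7 to 31 and 7 to 28 of radiated against sham, and 0 to 3, 0 to 4, 0 to 0 and 0 to 1 of control against sham. Leaving out a replicate number from all radiated and control groups gave 0 to 1 for the change over all weeks and for the step from week 2 to 3, and 0 to 0 for the other steps. Among these 182 results, signs turned only for members that had not passed. These were Ifit1 in week 3 of radiated against control (-0.26, -0.12, -0.16, -0.16 and -0.01 without control replicate 1, 3 or 4 or radiated replicate 2 or 3, and -0.10 and -0.23 without both libraries of replicate 1 or 3) and Gbp2 there (-0.05, -0.12, -0.08 and -0.07, and -0.02 and -0.06). Without control replicate 2 there, Ifit1 was at 1.53 and Gbp2 at 0.39. Against sham, over the libraries left out, control skin gave -0.52 to 0.41 for Isg15 in week 1 (0.02 and 0.03 without control replicates 1 and 3), -0.43 to 0.47 for Ifit1 in week 1 (0.10 without control replicate 3), -0.09 to 1.92 and -0.90 to 0.12 for Ifit1 in weeks 3 and 4, and -1.74 to 0.30 and -1.73 to 0.29 for Gbp3 in weeks 2 and 4. The cause was not tested. In the simulated data, which gave every gene the same spread, changes near 2-fold were rarely recovered at these group sizes. Members such as Gbp5 and Irf1 passed in week 4 of radiated against control skin with smaller changes. The 3 sham libraries limit every comparison with sham.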
